A study of Cricetulus griseus with 4 samples.

Results

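The 6 genes described here make or maintain chromatin states. They are PHC2 of Polycomb repressive complex 1, RBBP4, a histone-binding subunit shared by several complexes, the deacetylase SIRT2, the methyltransferase PRDM2, NFRKB of the INO80 remodelling complex, and MLLT3, a reader of acylated histones. They were chosen by their log2 ratios: each lay far from the middle of the arrays in one or both of the comparisons below, with no fixed threshold. Each had 1 probe carrying only its symbol, so the 6 genes stand on 6 of 1152 probes, among 347 genes that could be named in this way. Because the ratios themselves chose these genes, their values are given as a description with limma's standard errors and without a test.

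Total RNA from Chinese hamster cell clones was compared on 4 two-channel arrays, to ask whether gene expression differs between chromosomally stable and unstable clones that share a genetic background. Channel 1 of every array held the stable clone RT210B. Channel 2 held equal amounts of 2 unstable clones, LS12 with 10-107-9 in mixture 1 and Fe10-3 with 10-56-11 in mixture 2, and each mixture was hybridised on 2 arrays. As general background, such clones were derived from a hamster ovary line holding a human chromosome, in work on radiation and genome instability, and none of the 6 human genes lies on that chromosome. Each unstable sample is a pool, so a value cannot be assigned to either of its clones, and the stable side is 1 clone. Whether the replicates came from separate cultures is not stated, so errors measure only the spread between arrays, which may be technical. For these errors limma took 1 spread per gene over both mixtures and drew it towards that of all probes. An SE is therefore not a gene's own spread in 1 mixture.

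Polycomb group proteins keep genes silent through cell divisions: complex 1 ubiquitinates a histone and compacts chromatin, and complex 2 methylates one. Other enzymes add or remove methyl and acetyl groups, reader proteins bind the marked histones, and remodelling complexes such as INO80 move or exchange nucleosomes at the expense of ATP. Chromatin regulators of these classes also act in DNA repair, replication and chromosome segregation.

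A value below is the mean of a probe's duplicate spots as a log2 ratio between the channels, after subtracting the median probe of that array, so that 0 is the array's middle probe and a distance of 1 is 2-fold. Neither labels nor values settle which pool is the numerator, so a sign says on which side of the middle a gene lay and not in which pool it was higher. No array had its channels swapped, so effects of channel and of pool cannot be told apart. Before centring, the middle probe was at -0.12 and -0.22 in mixture 1 and at -0.44 and -0.53 in mixture 2. Ratios were spread more widely over probes in mixture 1 (SD 1.14 and 1.05) than in mixture 2 (0.796 and 0.471), so ranks among the 1152 probes are given beside log2 values far from the middle. Values set across genes compare ratios, not amounts of RNA.

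PHC2 is a polyhomeotic subunit of Polycomb repressive complex 1, in which it links complexes into larger assemblies. Its centred log2 ratio was -2.17 and -1.29 on replicates 1 and 2 of mixture 1, and -1.59 and -1.02 on those of mixture 2. All 4 arrays lay at least 2-fold on the negative side, and the ranges of both mixtures overlapped. In the same order, PHC2 was the 46th, 106th, 47th and 40th lowest of 1152 probes. The means were -1.73 in mixture 1 and -1.31 in mixture 2 (SE 0.334 each, 2 arrays), and -1.52 (SE 0.236, 4 arrays) over both, or 2.87-fold from the middle probe. The difference of mixture 1 minus mixture 2 was -0.42 (SE 0.472), less than its error. It turned positive with the arrays scaled to 1 spread (0.54), on the first spots alone (0.22) and without replicate 1 of mixture 1 (0.02). PHC2 was the only one of the 6 genes at least 2-fold on the negative side on all 4 arrays, a position held by 0.521% of all probes. Duplicate spots of PHC2 were far apart in mixture 1 (-1.48 and -2.86 on replicate 1, -0.68 and -1.90 on replicate 2) and closer in mixture 2 (-1.43 and -1.75, then -1.25 and -0.80). The mixture 1 mean was -1.10 from the first spots and -2.42 from the second. Each of its 8 spots was negative, as for 9.55% of probes.

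RBBP4 is a WD-repeat protein that binds histones and serves in Polycomb repressive complex 2, in histone deacetylase complexes such as NuRD and Sin3, and in the chromatin assembly factor CAF-1. Both arrays of mixture 1 were positive, at 1.23 and 1.37 (127th and 148th highest of 1152 probes), and both of mixture 2 negative, at -2.73 and -0.57. The mixtures thus took opposite sides of the middle, as for 6.6% of probes with mixture 1 positive, and their nearest arrays were 1.80 apart. In mixture 1 the replicates lay close together (SD 0.0988), whereas in mixture 2 RBBP4 was the 2nd lowest probe on replicate 1 and the 181st lowest on replicate 2 (SD 1.53). The mixture 1 mean was 1.30 and the mixture 2 mean -1.65 (SE 0.463 each), which left -0.18 (SE 0.327) over both. Without replicate 1 of mixture 2 the mixture 2 value was -0.57, and without replicate 2 it was -2.73. The value over both mixtures was then 0.36 and -0.72, so its side rests on 1 array. The difference of 2.95 (SE 0.654), or 7.71-fold, was the highest among the 1152 probes, and it was 1.87 without replicate 1 of mixture 2. The top rank rests on that array. Without it several probes had a larger difference, among them HYAL3, NTRK3, PRKCH, HOXD3, TEAD2 and KISS1. HYAL3 lay at 2.64 and 1.26 in mixture 1 and at -0.46 on replicate 2 of mixture 2. NTRK3 lay at 0.86, 1.70 and -1.11 on the same arrays. Both spots took part in the gap between the replicates of mixture 2: on replicate 1 the RBBP4 spots read -2.82 and -2.64, and on replicate 2 they read -0.86 and -0.28. All 4 spots of mixture 1 were positive and all 4 of mixture 2 negative, as for 2.43% of probes.

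**Figure D1:**
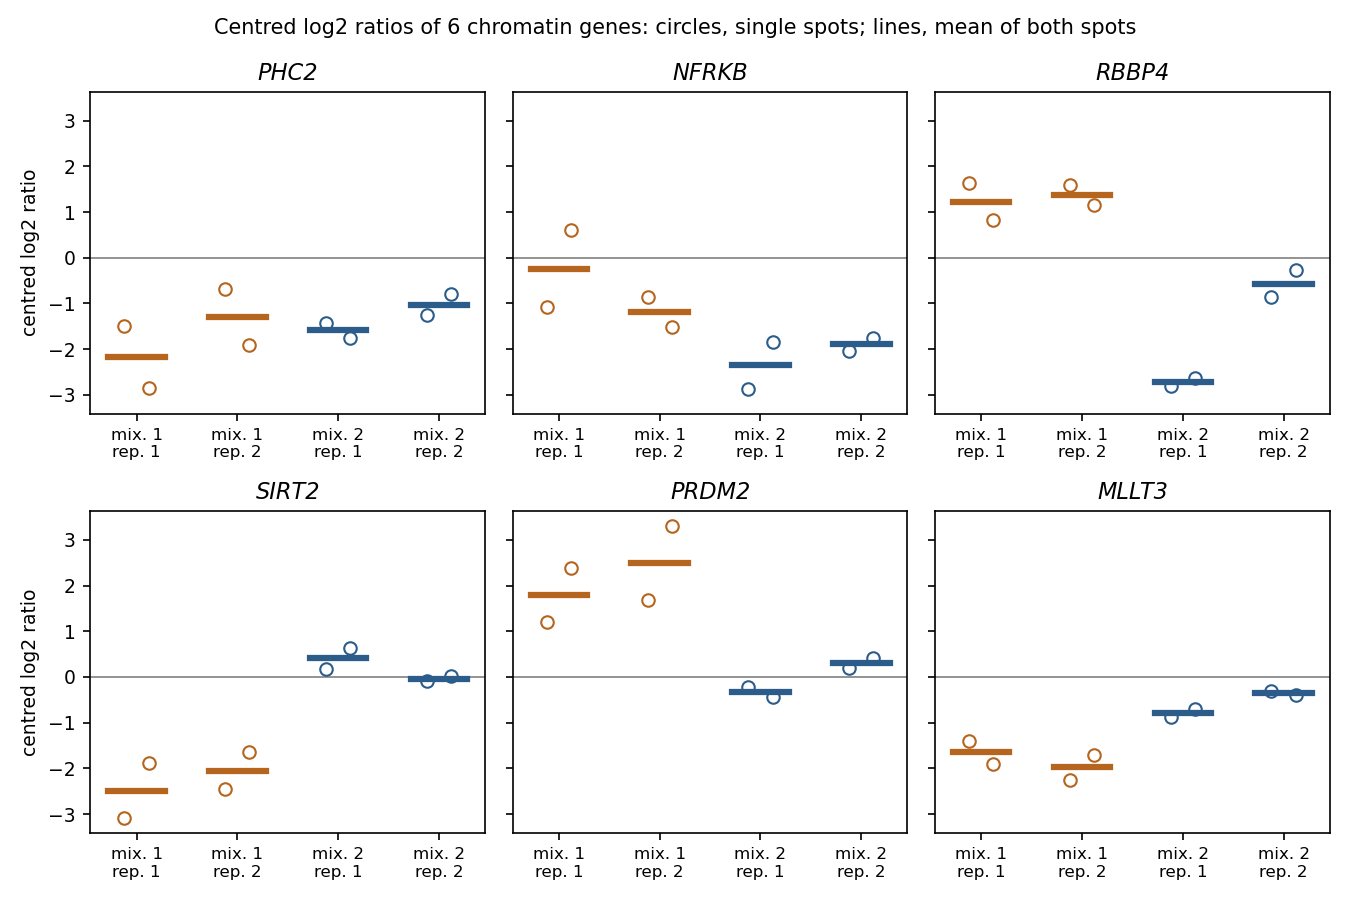
Centred log2 ratio (vertical axis) of PHC2, NFRKB, RBBP4, SIRT2, PRDM2 and MLLT3 on each of 4 arrays (horizontal axis), with circles for single spots and lines for the mean of both. PHC2 is below 0 at all 8 spots, RBBP4 changes side between the mixtures, and SIRT2 and PRDM2 are far from 0 in mixture 1 alone.

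SIRT2 is an NAD-dependent deacetylase of tubulin and of histones, known for its part in mitosis. Mixture 1 gave -2.49 and -2.05, and mixture 2 gave 0.41 and -0.03. Both arrays of mixture 1 were low, at the 24th and 17th lowest probe, while mixture 2 lay around the middle, and the mixtures did not overlap (gap 2.02). The mixture 1 mean was -2.27 (SE 0.302), or 4.82-fold from the middle probe. With both spots averaged it was the most negative of the 6 genes. Its size depended on the spot, at -2.80 from the first spots and -1.81 from the second. On the second spots PHC2 (-2.42) and MLLT3 (-1.84) were more negative, so the rank of SIRT2 rests on the first spots. With the arrays scaled to 1 spread the mixture 1 value of SIRT2 was -1.63. The mixture 2 mean was 0.19 (SE 0.302), and without centring it was -0.30, so it has no settled side. The mixtures differed by -2.46 (SE 0.427), and by -2.14 without centring.

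PRDM2 is a zinc finger protein of the PR domain family that methylates histone tails and is known as a tumour suppressor. The 2 arrays of mixture 1 read 1.79 and 2.50, and those of mixture 2 read -0.33 and 0.30. It was the 20th and 5th highest of 1152 probes in mixture 1 and fell on either side of the middle in mixture 2, without overlap (gap 1.48). The means were 2.14 (SE 0.326) in mixture 1, or 4.41-fold, and -0.02 (SE 0.326) in mixture 2, a difference of 2.16 (SE 0.460). Without centring, the mixture 2 value was -0.50, with both arrays negative at -0.77 and -0.23. It was 0.09 with the arrays scaled to 1 spread, 0.01 on the first spots and 0.30 without replicate 1 of mixture 2, so it has no settled side. The size in mixture 1 depended on the spot. The first spots read 1.19 and 1.69 and the second spots 2.38 and 3.31 on the same 2 arrays, so the mixture 1 mean was 1.42 from the first spots and 2.80 from the second, and the difference between the mixtures was 1.41 and 2.91. In mixture 2 the spots lay 0.228 and 0.209 apart.

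NFRKB is a subunit of the INO80 remodelling complex, where it binds the deubiquitinase UCHL5. It had values of -0.24 and -1.18 in mixture 1 and of -2.36 and -1.90 in mixture 2. On replicate 2 of mixture 2 it was the lowest of all 1152 probes, and on replicate 1 the 9th lowest. The mixture 2 mean of -2.13 (SE 0.334), or 4.37-fold from the middle, was the lowest mean of any probe in that mixture. In mixture 1 the mean was -0.71 (SE 0.334), and the arrays stood apart, at the 501st and the 124th lowest probe. Without replicate 1 the mixture 1 value was -1.18, and without replicate 2 it was -0.24. On replicate 1 of mixture 1 the spots lay on opposite sides (-1.09 and 0.60), a difference of 1.69 that exceeded that of 91.8% of probes. The mixtures did not overlap (gap 0.716) and differed by 1.42 (SE 0.472), and by 2.44 once the arrays were scaled to 1 spread.

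MLLT3, also called AF9, reads acetylated and crotonylated histones through a YEATS domain, recruits the methyltransferase DOT1L and the elongation machinery, and is a fusion partner of MLL in leukaemia. Its values were -1.65 and -1.97 in mixture 1 and -0.79 and -0.36 in mixture 2. In the same order it was the 122nd, 23rd, 212th and 304th lowest of 1152 probes. All 4 arrays were negative and the mixtures did not overlap (gap 0.860), with mixture 1 farther from the middle. The means were -1.81 (SE 0.297) in mixture 1, -0.58 (SE 0.297) in mixture 2 and -1.19 (SE 0.210) over both. The mixture 2 value was -1.06 without centring and -0.36 without its replicate 1. The mixtures differed by -1.24 (SE 0.420), but by -0.56 once the arrays were scaled to 1 spread. Each of its 8 spots was negative, and duplicate spots lay 0.519 and 0.548 apart in mixture 1 and 0.184 and 0.0856 in mixture 2.

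**Figure D2:**
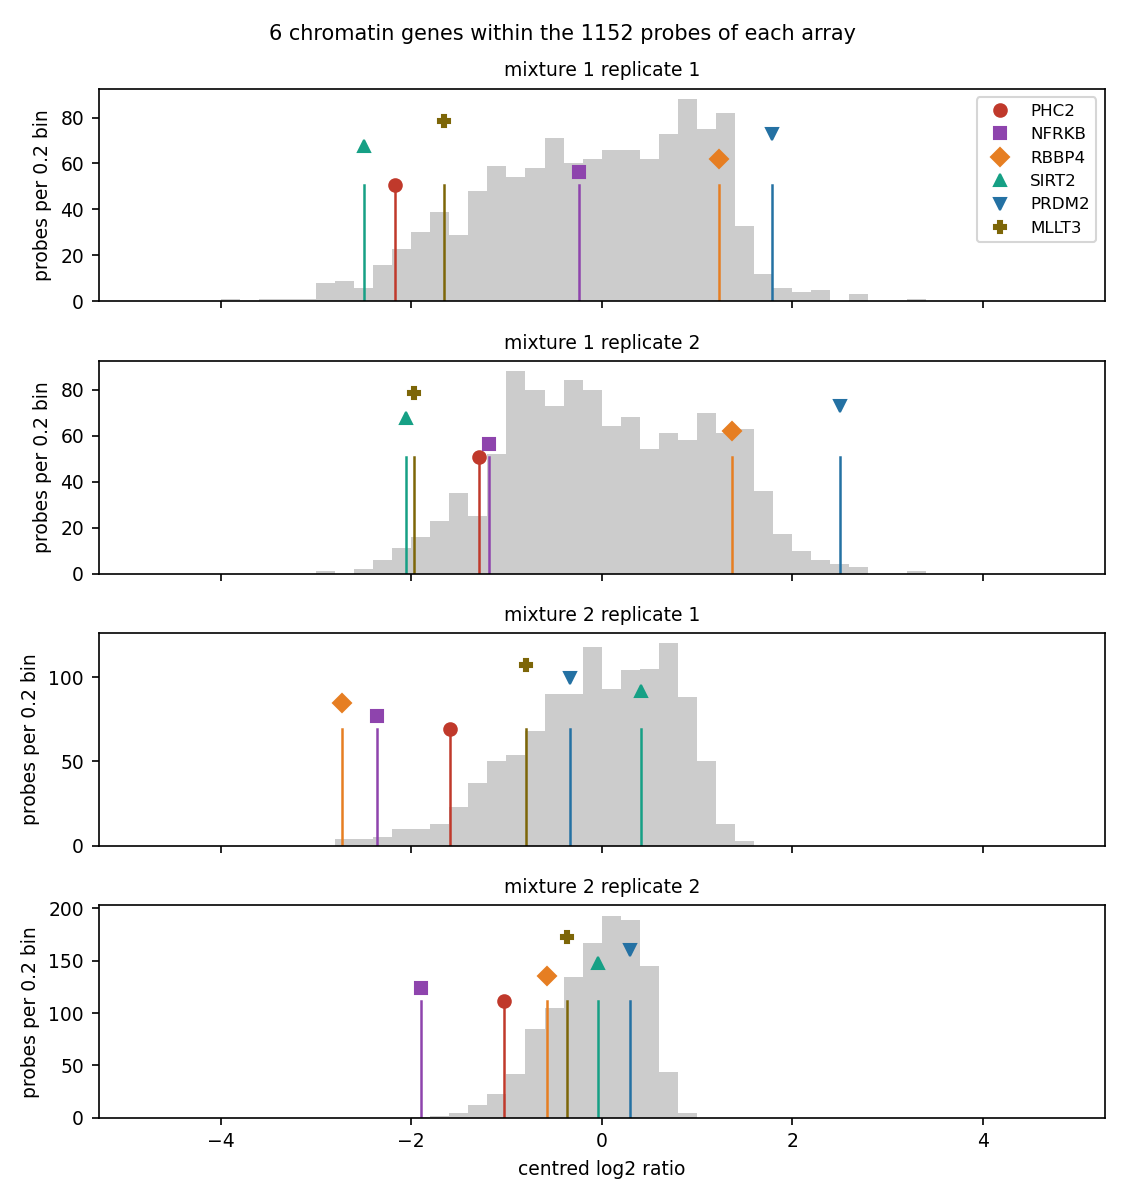
Number of probes (vertical axis, per bin of 0.2) by centred log2 ratio (horizontal axis) for all 1152 probes on each of 4 arrays, with the 6 chromatin genes marked by coloured lines and symbols whose height has no meaning. In mixture 2 NFRKB lies at the negative end of both arrays, and RBBP4 (-2.73) lies there on replicate 1 and at -0.57 on replicate 2.

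Side by side, 5 of the 6 genes were at least 2-fold from the middle on both arrays of mixture 1: RBBP4 and PRDM2 on the positive side, and PHC2, SIRT2 and MLLT3 on the negative side. Over all probes 23.6% were, 14.1% positive and 9.55% negative. In mixture 2 PHC2 and NFRKB were, both negative, where 1.91% of all probes were at least 2-fold and none of these was positive. Since distance from the middle chose the genes, nothing is read from these counts. PHC2, NFRKB and MLLT3 were negative on all 4 arrays, as were 19.9% of probes, and none of the 6 was positive on all 4. All but PHC2 had mixtures that did not overlap, which held for 62.2% of probes. The median over the 6 genes was -1.22 in mixture 1, -0.94 in mixture 2 and -1.12 in the mean of both, against -0.03, -0.00 and -0.10 over all probes. In mixture 1 the 6 values ran from -2.27 to 2.14. The same choice of genes fixes these medians, so nothing is read from them either.

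Ordered by their mixture 1 means, the genes ran from PRDM2 through RBBP4, NFRKB, PHC2 and MLLT3 to SIRT2. Both ends of this order changed with the spot used. On the first spots RBBP4 (1.59) lay above PRDM2 (1.42). On the second spots PHC2 (-2.42) lay below MLLT3 (-1.84) and SIRT2 (-1.81). PHC2 overlapped with MLLT3 and with SIRT2 over its arrays, while the nearest arrays of NFRKB and PHC2 stood at -1.18 and -1.29. In mixture 2 the order was SIRT2, PRDM2, MLLT3, PHC2, RBBP4 and NFRKB. There SIRT2 overlapped with PRDM2, and RBBP4 with every gene below PRDM2. Only NFRKB and RBBP4 were farther from the middle in mixture 2 than in mixture 1 on the log2 scale. PHC2 was too in the settings that turned its difference positive, while without replicate 1 of mixture 2 RBBP4 was nearer the middle in mixture 2 (-0.57) than in mixture 1 (1.30).

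**Figure D3:**
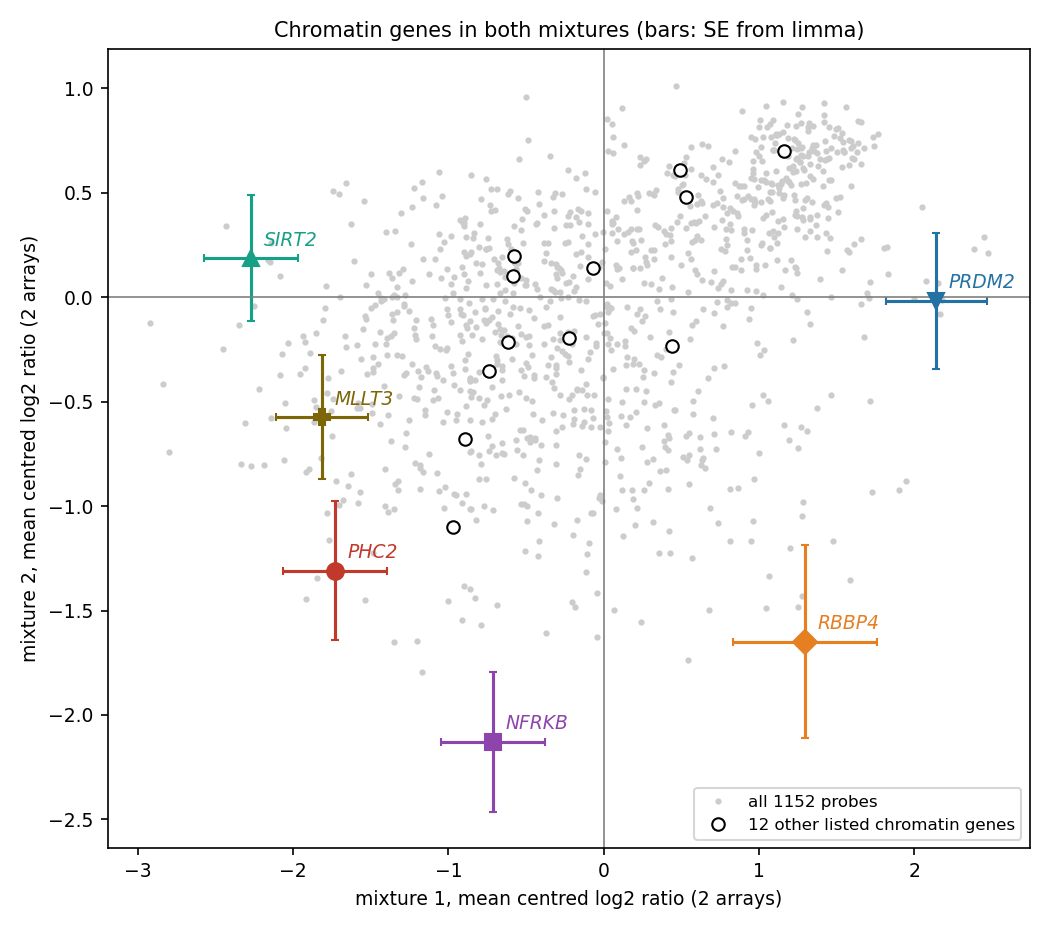
Mean centred log2 ratio in mixture 1 (horizontal axis) against mixture 2 (vertical axis), each over 2 arrays, for all 1152 probes (grey), 12 other listed chromatin genes (open circles) and the 6 genes (coloured, bars are limma's SE). SIRT2 and PRDM2 lie at the left and right near 0 in mixture 2, NFRKB at the bottom, and RBBP4 at 1.30 and -1.65.

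Duplicate spots of the 6 genes lay farther apart than usual on the arrays of mixture 1. Their median difference was 1.19 and 0.738, against 0.347 and 0.348 over all probes. In mixture 2 it was 0.274 and 0.244, against 0.328 and 0.120. RBBP4 and MLLT3 had spots under 1 (log2) apart on all 4 arrays, and the other 4 genes did not, while 62.8% of probes did. Probes at least 2-fold on the negative side had a median spot difference of 0.631 and 0.576 on the arrays of mixture 1, and those on the positive side one of 0.111 and 0.160. On the positive side, PRDM2 had differences of 1.19 and 1.62, and RBBP4 had 0.816 and 0.436. On replicate 2 of mixture 2 the RBBP4 spots were 0.588 apart, more than for 91.8% of probes. The part of spot quality in these ratios was not tested, and no spot intensities were used here.

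The named genes with the most similar 4-array values were found by the Euclidean distance between centred log2 ratios, a description over 4 points that shares the RT210B sample on every array. RBBP4 had KISS1 (distance 0.554), TEAD2 (0.660) and TERC, the telomerase RNA (1.18), as its nearest. KISS1 lay at 1.09, 1.41, -2.22 and -0.74 on the 4 arrays, with the same wide pair in mixture 2 as RBBP4, and TEAD2 lay at 1.68, 1.50, -2.29 and -0.41. PHC2 was nearest to MTDH (0.616), ATXN1 (0.630) and NME4 (0.816). SIRT2 was nearest to the cathepsin CTSO (0.780), ZXDC (0.838) and GJA1 (0.960), PRDM2 to the elongin subunit ELOC (0.628), MAT2A (0.657) and RPS6KA1 (0.687), and MLLT3 to IKZF5 (0.658), E2F5 (0.667) and ADD3 (0.686). Another GJA1 probe lay farther from SIRT2, at -1.53, -0.56, 0.27 and -0.09 on the 4 arrays. For NFRKB the nearest genes were farther away: XIST came first at 1.19, followed by RAD50 at 1.62 and EIPR1 at 1.71. Among the 6 genes themselves the closest pair was PHC2 and MLLT3 (1.35) and the farthest SIRT2 and PRDM2 (6.29).

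Each of the 6 symbols matched 1 protein-coding gene in the RefSeq annotation of the Chinese hamster assembly CriGri-PICRH-1.0, which was used for names and gene order only. Phc2 and Rbbp4 lie on the same chromosome there, with 13 protein-coding genes between them. Prdm2 and Mllt3 lie on it too, with 247 such genes between Prdm2 and Rbbp4 and 402 between Mllt3 and Phc2. The probes of PHC2 and RBBP4 took opposite sides in mixture 1 (-1.73 and 1.30) and the same side in mixture 2 (-1.31 and -1.65).

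Other chromatin genes were taken from a list of 474 symbols in 15 classes, of which 12 besides the 6 had a probe with 1 symbol. Because the 6 were picked for distance, the 12 are by construction more often the genes nearer the middle. These 12 were tested in limma with Benjamini-Hochberg adjustment over all 1152 probes. In mixture 1, 1 of 12 passed an adjusted p of 0.05, on the positive side, where 43.1% of all probes passed and 24.4% passed as positive. In mixture 2 and in the difference between the mixtures 0 of 12 passed, and 0% of all probes did. At an unadjusted p under 0.05 in limma, 2 of the 12 were counted in mixture 2 (19.6% of all probes) and 0 in the difference (23.9%). In the mean of both mixtures 3 of 12 passed, 1 positive and 2 negative, against 38.7% of probes (21.7% positive, 17% negative). The medians of the 12 genes were -0.40, -0.05 and -0.20 in mixture 1, mixture 2 and their mean.

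Phc1, the polyhomeotic paralogue of PHC2 in Polycomb repressive complex 1, is annotated with a mouse symbol. It lay at 0.84 and 0.04 in mixture 1 and at -0.16 and -0.30 in mixture 2, whereas PHC2 was at least 2-fold negative on all 4 arrays. Phc1 thus took opposite sides of the middle in the mixtures, without overlap (gap 0.204). Its spots were 1.68 apart on replicate 1 of mixture 1, at 1.68 and 0.00. The means of 0.44 and -0.23 (SE 0.314 each) did not pass (limma adjusted p = 0.278 and 0.682), nor did 0.10 over both (SE 0.222, limma adjusted p = 0.739) or the difference of 0.67 (SE 0.445, limma adjusted p = 0.348). Without centring, replicate 2 of mixture 1 lay at -0.18 and the value over both mixtures at -0.22, so neither has a settled side.

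SETD2, the methyltransferase that marks histones in transcribed gene bodies, was the gene on the positive side. It lay at 1.19 and 1.13 in mixture 1 and at 0.86 and 0.54 in mixture 2, positive on all 4 arrays. Its mean was 1.16 (SE 0.288, limma adjusted p = 0.0141) in mixture 1 and 0.93 (SE 0.204, limma adjusted p = 0.0110) over both. With the arrays scaled to 1 spread it missed the threshold in mixture 1 (0.83, limma adjusted p = 0.0544). Over both mixtures it lay at 0.85 when replicate 1 of mixture 2 was left out. In mixture 2 it lay at 0.70 (limma adjusted p = 0.249), and with scaled arrays it passed there (0.94, limma adjusted p = 0.0386).

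RIOX2, a ribosomal oxygenase also described as a histone demethylase, lay at -0.41, -1.53, -0.68 and -1.51 on the 4 arrays in the same order. It was the 4th lowest probe on replicate 2 of mixture 2, and its mean over both mixtures was -1.03 (SE 0.261, limma adjusted p = 0.0163). Its spots lay 1.05 to 1.93 apart on the 4 arrays. It missed the threshold at -0.99 on the first spots alone (limma adjusted p = 0.0513), and it lay at -0.83 with replicate 2 of mixture 2 left out. In mixture 1 RIOX2 lay at -0.97 (SE 0.369, limma adjusted p = 0.0608), with -0.24 on the first spots and -1.76 on the second. It passed there on the second spots (limma adjusted p = 0.0283), without centring (0.0359), on the arrays of mixture 1 alone (0.0379) and with a replicate block (0.0396). In mixture 2 it lay at -1.10 (SE 0.369, limma adjusted p = 0.249). It passed there without centring (limma adjusted p = 0.0258), with scaled arrays (0.0347), and on the arrays of mixture 2 alone (0.0148).

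PHF1, a Tudor domain partner of Polycomb repressive complex 2, lay at -1.28 and -0.51 in mixture 1 and at -0.93 and -0.42 in mixture 2. Its mean over both was -0.79 (SE 0.228, limma adjusted p = 0.0262). On the second spots alone it fell short of the threshold (-0.36, limma adjusted p = 0.237). With a first replicate left out, it lay at -0.60 for that of mixture 1 and at -0.66 for that of mixture 2. In mixture 1 PHF1 lay at -0.89 (SE 0.322, limma adjusted p = 0.0512), and it passed there without centring (limma adjusted p = 0.0233) and on the first spots (0.0236). In mixture 2 it lay at -0.68 (limma adjusted p = 0.267), and it passed without centring (-1.16, limma adjusted p = 0.0345).

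INO80, the ATPase of the complex that holds NFRKB, lay at -1.32, 0.09, -0.14 and -0.29. Its mixture 2 value of -0.21 (SE 0.371) stands beside -2.13 for NFRKB. INO80 did not pass (limma adjusted p = 0.231 over both mixtures). Leaving out replicate 2 of mixture 1 gave INO80 -0.77 over both mixtures and -1.32 in mixture 1. This leaves 1 array in mixture 1, so no test is given for it. KAT6A, an acetyltransferase of the MYST family, lay at -1.42, -0.05, -0.64 and -0.06 and did not pass either (limma adjusted p = 0.137 over both mixtures). Leaving out the same array, KAT6A lay at -1.42 in mixture 1 and at -0.89 over both mixtures. Without centring both genes passed over both mixtures, INO80 at -0.74 (limma adjusted p = 0.0368) and KAT6A at -0.87 (limma adjusted p = 0.0223).

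HLTF, a SWI/SNF-related translocase that acts at stalled replication forks, and EPS15, an endocytic adaptor listed as a partner of MLL fusions, were positive on all 4 arrays, although without centring they lay at -0.14 and -0.15 on replicate 2 of mixture 2. Their means over both mixtures were 0.55 and 0.50 (limma adjusted p = 0.0625 and 0.0873). ASH2L, a core subunit of MLL methyltransferase complexes, lay at -0.58 in mixture 1 and 0.10 in mixture 2, and ING1, a histone reader of the Sin3 deacetylase complex, at -0.58 and 0.20. ING1 took opposite sides in the mixtures on every array, as for 4.95% of probes with mixture 1 negative. Without centring its mixture 2 value was -0.29, and those of ASH2L and SMARCA2 were -0.39 and -0.35, so these have no settled side in mixture 2. The histone chaperone DAXX (-0.22 and -0.20) and the SWI/SNF ATPase SMARCA2 (-0.07 and 0.14) lay near the middle. SMARCA2 stood at 0.74 and -0.88 on the arrays of mixture 1, on opposite sides, with its spots 0.0280 and 0.0871 apart. None of these 6 genes passed in any of the 4 comparisons, with limma adjusted p-values of 0.0625 to 0.974.

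**Figure D4:**
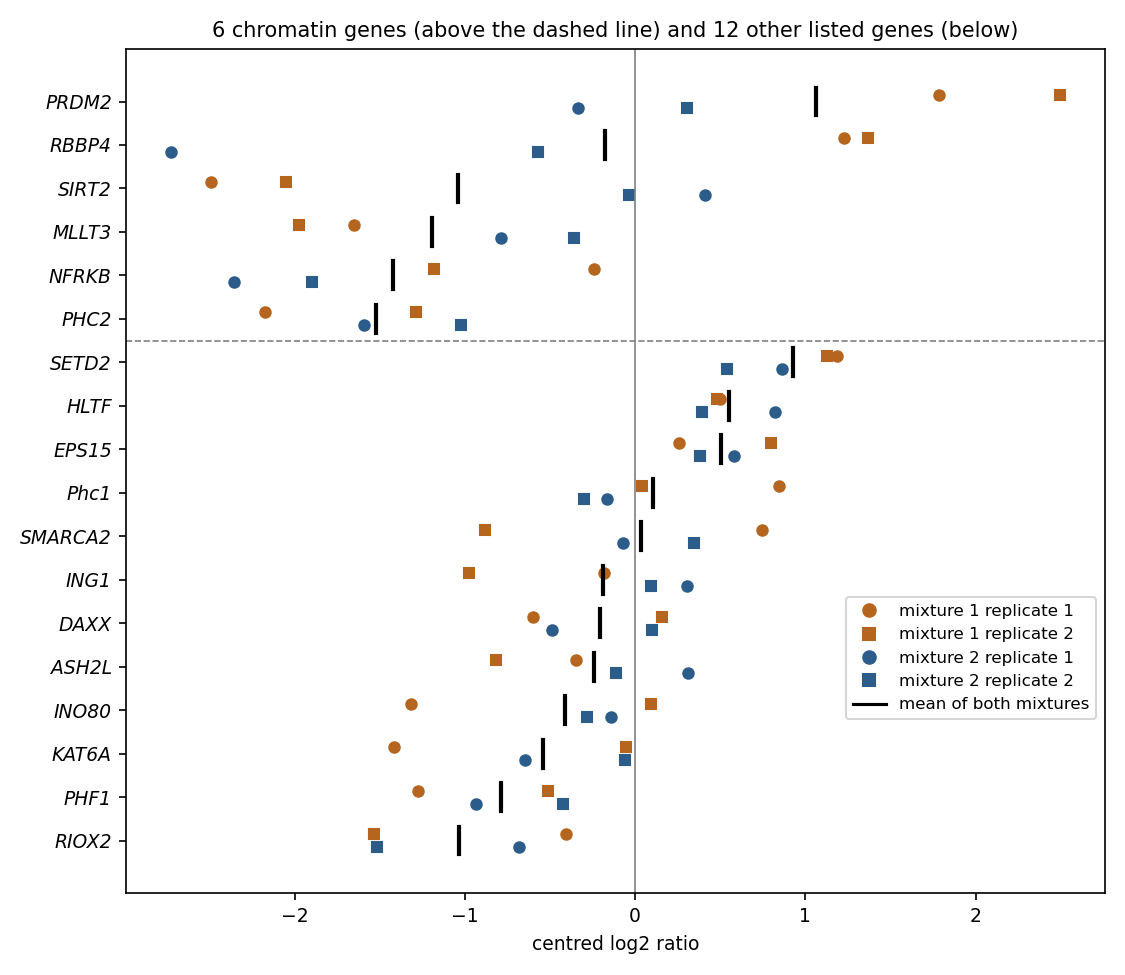
Centred log2 ratio (horizontal axis) on each of 4 arrays for the 6 genes and for 12 other listed chromatin genes (vertical axis), with black bars for the mean of both mixtures. Of the 12 genes, HLTF, SETD2 and EPS15 are positive on all 4 arrays, and PHF1, RIOX2 and KAT6A negative on all 4, where 25.8% and 19.9% of all probes are; without centring HLTF and EPS15 are negative on replicate 2 of mixture 2.

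Cell identity could hardly be checked on these arrays: of 25 markers for fibroblast, epithelial, blood, endothelial and granulosa cells, 1 (CDH5, endothelial) had a named probe, and ratios give no levels.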

How the data were processed

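The authors deposited a log2 ratio of both channels for each of 2304 spots on 4 arrays, with none missing. Normalization factors of 3.8 (mixture 1 replicate 2) and 1.169 (mixture 2 replicate 1) are named per the labels; their target, the dyes, scanner and background correction were not given in the sources used here. Groups came from the sample titles. Adjacent spots were averaged to 1152 probes; paired spots correlated at r 0.725 to 0.819 across probes, against 0.003 to 0.074 for unpaired neighbours. Symbols came from GEO's platform annotation: 350 probes had 1 symbol, 8 several and 794 are unnamed here. Of the 350, 349 were in capitals, as human symbols are, and 1 (Phc1) in mouse style, so lists were matched without regard to letter case. Hybridisation of hamster RNA to probes of other species was not measured.

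Each array was centred on its median probe. limma 3.58.1 in R 4.3.3 fitted 1 mean per mixture over all 4 arrays (2 residual and 6.69 prior degrees of freedom). Benjamini-Hochberg adjustment ran over all 1152 probes with a threshold of 0.05. The fit was also run on simulated data with the same effects in both mixtures. Its pass condition was on bias only, so it does not vouch for the p-values or for differences between the mixtures. RT210B entered as 1 control sample, so its own spread is left out. The members and lists were chosen with earlier results of these data known. The 6 genes and all other listed genes with a probe of 1 symbol are named, plus for each of the 6 the 3 nearest named genes. Alternatives changed centring, scaling, spots, prior, arrays fitted, the replicate block and the replicates kept.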

Additional observations from a re-analysis of the deposited data

Results flagged for a closer look

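RBBP4 lay on the positive side on both arrays of mixture 1 and on the negative side on both arrays of mixture 2, a difference of 2.95 (log2). It was chosen on these values, so the difference was not tested. Phc1 lay at 0.84 and 0.04 in mixture 1 and at -0.16 and -0.30 in mixture 2, a difference of 0.67 (SE 0.445) that did not pass in limma (adjusted p = 0.348). Without centring replicate 2 of mixture 1 was at -0.18, so the opposite sides of Phc1 rest on the centring. ING1 lay at -0.18 and -0.98 in mixture 1 and at 0.30 and 0.09 in mixture 2, a difference of -0.78 (SE 0.445) that did not pass in limma (adjusted p = 0.297). Without centring the ING1 value in mixture 2 was -0.29, so its opposite sides rest on the centring too. Opposite sides were held by 6.6% of probes with mixture 1 positive and by 4.95% with mixture 1 negative.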

How the results depend on the processing

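Of the 6 genes' 24 values (mixture 1, mixture 2, their mean and their difference), 4 changed side under at least 1 alternative: the PHC2 difference and PRDM2 in mixture 2 under 3 each, SIRT2 in mixture 2 under 2 (-0.30 without centring, -0.03 without its replicate 1) and the RBBP4 mean under 1. The 18 that lay at least 1 from 0 did not, and the genes were chosen for that distance. Of 260 alternative values of the 6 genes, 34 moved by the spread between replicates or more. Many could not: own-array fits, the robust prior and the replicate block leave a value unchanged. Leaving out 1 of 2 replicates always shifts it by less than that spread. RBBP4 in mixture 2, at -1.65, thus counts as unmoved at -0.57 and at -2.73, and the 34 are no measure of stability. Among the 12 other listed genes, an alternative brought a value past the limma threshold 27 times and took one off it 7 times. In mixture 1 the count of 1 became 3 without centring, 0 with the arrays scaled to 1 spread, and 2 with the first or the second spots only, with close duplicate spots only (8 of the 12 genes kept), with each mixture fitted on its own arrays, and with a replicate block. In mixture 2 the count of 0 became 2 without centring, 2 with scaled arrays and 1 on its own arrays, and in the mean of both mixtures the count of 3 became 5 without centring. Leaving out a replicate leaves 1 array in its mixture, so counts of passing genes are not given for those fits. The 27 and 7 above include them. For 1 mixture, leaving out either array of the other repeats the fit on its own arrays, and the 27 and 7 count these repeats too. Over all probes in limma, mixture 2 had 0 passing probes, 206 without centring, 262 with scaled arrays and 113 on its own arrays, and the difference had 36 with the replicate block. Mixture 1 had 231 passing probes, against 497, with scaled arrays. In the labels used here, same-numbered arrays shared only a replicate number, and a shared batch was not tested. Across probes their deviations correlated at r = -0.098, and the block changed no other count of listed genes by over 1.5 times. HLTF passed over both mixtures with scaled arrays (0.57, limma adjusted p = 0.0381), and ASH2L (-0.51, limma adjusted p = 0.0487; -0.89 and 0.0267 in mixture 1) and KAT6A (-0.82, limma adjusted p = 0.0423) passed with close duplicate spots. The causes were not tested. With 2 arrays a mixture, SEs of 0.288 to 0.463 limit every mixture value here.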
